A study of Arabidopsis thaliana with 9 samples.

Results

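The CBF genes encode transcription factors that switch on cold-acclimation genes, and 8 genes that encode their known regulators were followed here in wounded leaves: CAMTA1 (AT5G09410), CAMTA2 (AT5G64220), CAMTA3 (AT2G22300), ICE1 (AT3G26744), ICE2 (AT1G12860), MYB15 (AT3G23250), HOS1 (AT2G39810) and OST1 (AT4G33950). They were chosen by gene identifier from the 27206 genes of the deposited table, and all 8 passed the filter on low counts that left 17622 genes. The samples were leaves of Arabidopsis thaliana, wild-type Col-0, with 3 biological replicates taken before wounding (time 0), 3 taken 30 min after wounding and 3 taken 60 min after it. All plants grew in soil under short days after a spell of cold given to the sown seeds, and no other agent or mutation is named for any group. The labels name no unwounded leaves at 30 or 60 min and no hour of harvest, so the effect of wounding and that of the hour of day cannot be told apart.

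In the cold, calcium entering the cell is read by calmodulin, and the calmodulin-binding CAMTA factors bind CGCG-containing sites in the CBF2 promoter. ICE1 and ICE2 are related basic helix-loop-helix factors that bind CANNTG sites of CBF promoters, while MYB15 is a MYB factor that binds the same promoters and lowers their activity. HOS1 is a ubiquitin ligase that marks ICE1 for breakdown, and OST1 is a protein kinase of abscisic acid signalling, known for closing stomata, that phosphorylates and stabilises ICE1. Much of this control acts on proteins, which counts of RNA do not measure.

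The stretches of 250 bases before the annotated starts of MYB15, CAMTA3 and CAMTA2 are shown because these were the members that rose after wounding. That of CBF2 is shown because CAMTA factors are known to bind its promoter. All stretches were read from the RefSeq sequence and annotation of build TAIR10.1, 5′ to 3′ on the strand of the gene. Capitals mark CGCG, TTGAC (the core bound by WRKY factors) and ACGTG (the core bound by many bZIP factors), on either strand. MYB15 lies on the plus strand (chr3:8308959-8309208), as do CAMTA3 (chr2:9470969-9471218) and CAMTA2 (chr5:25685943-25686192), and CBF2 lies on the minus strand (chr4:13016236-13016485).
MYB15: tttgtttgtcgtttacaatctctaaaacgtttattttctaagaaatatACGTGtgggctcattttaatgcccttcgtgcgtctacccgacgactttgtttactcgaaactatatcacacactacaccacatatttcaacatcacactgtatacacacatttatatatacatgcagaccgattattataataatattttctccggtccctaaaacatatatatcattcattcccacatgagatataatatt
CAMTA3: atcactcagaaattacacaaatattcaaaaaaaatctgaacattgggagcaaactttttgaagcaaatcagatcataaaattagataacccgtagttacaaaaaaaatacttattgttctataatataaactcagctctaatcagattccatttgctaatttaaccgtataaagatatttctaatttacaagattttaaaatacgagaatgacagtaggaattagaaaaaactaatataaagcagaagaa
CAMTA2: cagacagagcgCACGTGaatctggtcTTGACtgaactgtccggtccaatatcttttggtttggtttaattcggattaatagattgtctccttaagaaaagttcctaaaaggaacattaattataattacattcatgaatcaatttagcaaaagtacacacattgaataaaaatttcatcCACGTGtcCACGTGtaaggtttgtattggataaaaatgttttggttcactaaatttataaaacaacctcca
CBF2: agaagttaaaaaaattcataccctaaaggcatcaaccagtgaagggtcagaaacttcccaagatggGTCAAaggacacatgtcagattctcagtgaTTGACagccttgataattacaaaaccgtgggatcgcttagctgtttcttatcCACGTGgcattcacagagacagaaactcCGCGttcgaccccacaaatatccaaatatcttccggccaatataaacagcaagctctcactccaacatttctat
The MYB15 stretch held 1 ACGTG, 202 bases before the start, with 0 CGCG and 0 TTGAC. That of CAMTA3 held 0 of all 3 motifs. That of CAMTA2 held 1 TTGAC and 3 copies of CACGTG, each of which carries ACGTG on both strands and is also a CANNTG site. CBF2 held 1 CGCG, 2 TTGAC and 1 CACGTG. The motif CANNTG, which is not in capitals of its own, was also found 18 bases before the start of MYB15 and 101 bases before that of CAMTA3, and once more in the CBF2 stretch, 175 bases before the start. Among the same stretches of 26713 genes of the table, 10.1% held CGCG, 45% TTGAC, 23.1% ACGTG and 55.3% CANNTG, and CANNTG was the only one of the 4 that all 3 members that rose held. Of the other members, ICE1 held 1 CGCG, HOS1 held 2, and CAMTA1, ICE2 and OST1 held 0. The stretch before CAMTA1 lay almost wholly inside a neighbouring gene, AT5G09400, with 247 of its 250 bases, and HOS1 shared 28 bases with a neighbour. A match of letters is a description and not a shown binding site.

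Library totals were 14300929 counts in 30 min replicate 1 and 22072126 to 22970735 in the other 8 libraries. Summed over 6 markers of leaf mesophyll, which carry photosynthesis, levels were 114100 to 135100 CPM (counts scaled to a common library total) before wounding and 67970 to 109500 CPM after it. Most of that sum was RBCS1A, and of the 6 markers 1 was called lower at 30 min, 3 at 60 min and 0 higher. Summed over 6 guard cell markers, levels were 41.5 to 44.9 CPM before and 66.0 to 82.9 CPM after wounding. Of these 6, 4 were called higher and 0 lower at each time. The 5 root markers reached 15 counts at most, and 3 of them (EXPA7, RHD6 and IRT1) were at 0 in every library. In each group the library with the lowest mesophyll sum also had the highest value of its group on the second principal component, which held 13.4% of the variance (before-wounding replicate 1, 30 min replicate 3 and 60 min replicate 2).

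At 30 min 3 of the 8 genes were higher (CAMTA2, CAMTA3 and MYB15) and 1 was lower (ICE2), where 14.5% of all tested genes were called higher, 13.4% lower and 28% in either direction (quasi-likelihood test of edgeR, p adjusted by Benjamini-Hochberg over 17622 genes and called under 0.05). At 60 min the same 3 genes were higher and both ICE genes were lower, 5 of 8, against 17.1% higher, 15.3% lower and 32.4% in either direction among all genes. CPM did not overlap between the groups for 6 of the 8 at 30 min, against 43.4% of tested genes, and for 5 of the 8 at 60 min, against 47.3%. The 8 genes had a median of 0.17 (30 min) and 0.07 (60 min) on the log2 scale, beside 0.015 and 0.061 over all tested genes. MYB15 was the largest of the 8 values with its fitted change and with its lower bound, so their median is the same with either. Both comparisons share the libraries from before wounding. At 60 min the count rested on single libraries and on scaling: it was 2 without before-wounding replicate 1, 3 without before-wounding replicate 2 or 3 or without 60 min replicate 1 or 3, and 3, all higher, with library size alone as the scaling.

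**Figure D1:**
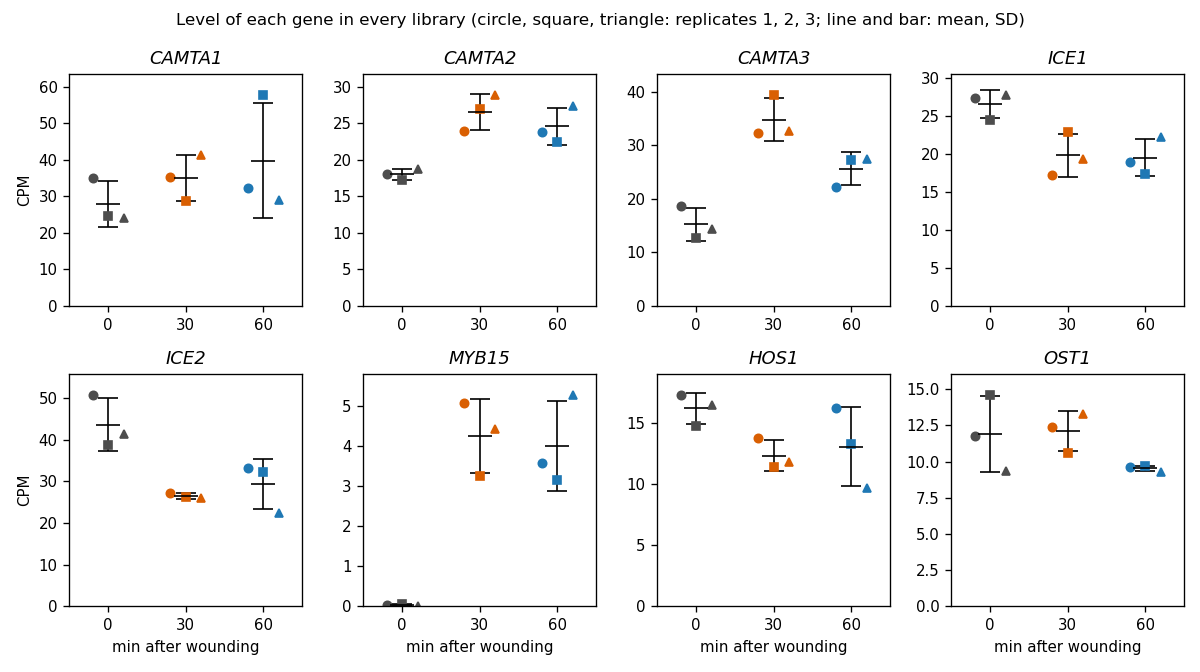
Level of each of the 8 genes in CPM (vertical axis, from 0) in every library against minutes after wounding (horizontal axis), with the mean and SD of 3 libraries. MYB15 goes from under 0.05 to 3.14 to 5.27 CPM, CAMTA3 is highest at 30 min, and ICE2 is lower in all 6 libraries after wounding.

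MYB15, the repressor of this set, showed the largest change. It had 1, 1 and 0 counts before wounding, 73, 67 and 108 at 30 min, and 83, 83 and 119 at 60 min. In CPM these were 0.0439, 0.0483 and 0 before wounding, 5.08, 3.25 and 4.43 at 30 min, and 3.58, 3.14 and 5.27 at 60 min. Every library after wounding was thus far above every library before it, while the 30 and 60 min libraries covered the same range.

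Because all 3 libraries before wounding were at or under a floor of 3 counts per library, the change of MYB15 is given as a lower bound: at least 29.9-fold higher at 30 min (4.26 ± 0.928 CPM, SD, n = 3) and at least 28.1-fold higher at 60 min (4.0 ± 1.12 CPM). The edgeR adjusted p was 1.83e-06 at both times. Only 0.187% of the tested genes had a larger fitted log2 change at 30 min, and 0.193% at 60 min, although the fitted value of 6.83 at 30 min depends on the prior count. Between 30 and 60 min the log2 change was -0.09, with a 95% interval of -0.79 to 0.61. The call held in every alternative tried, including each fit without 1 library.

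By the root mean square difference between centred log2 CPM profiles over the 9 libraries, among 11842 genes of at least 5 CPM on average, the profiles nearest to MYB15 were those of GDH2 (AT5G07440, a glutamate dehydrogenase gene, 0.251), ERD7 (AT2G17840, an early dehydration-responsive gene, 0.352) and GA2OX2 (AT1G30040, whose enzyme inactivates gibberellin, 0.39). The profile of MYB15 itself deviated from its mean by 2.42 on that measure. With 1, 1 and 0 counts before wounding, that profile and these distances depend on the prior count of 2 used for the log scale. GDH2 went from 8.2 ± 1.24 to 285 ± 48.6 and 283 ± 87.9 CPM.

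The nearest relatives of MYB15 did not share its rise. MYB13 (AT1G06180) had a mean of 1.98 ± 0.166 CPM in unwounded leaves, 0.573 ± 0.298 after 30 min and 1.2 ± 0.224 after 60 min. Its log2 change of -1.83 at 30 min (SE 0.46) was called (edgeR adjusted p 0.0095), and that of -0.71 at 60 min was not (adjusted p 0.224). MYB14 (AT2G31180) had 0 counts in all 9 libraries.

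MYB15 is also known as an activator of lignin synthesis in immunity, and 7 genes of monolignol synthesis were followed for that reason. All 7 were called lower at both times, where 13.4% (30 min) and 15.3% (60 min) of all tested genes were called lower. Their medians were -0.98 (30 min) and -1.12 (60 min) on the log2 scale, beside 0.015 and 0.061 over all tested genes. Between 30 and 60 min 0 of the 7 were called, against 2.02% of all tested genes. PAL1 (AT2G37040), whose enzyme makes the first step from phenylalanine, fell from 197 ± 30.4 to 49.5 ± 7.53 and 57.3 ± 8.38 CPM. Its log2 change was -2.0 after 30 min (SE 0.17, edgeR adjusted p 2.58e-06) and -1.78 at 60 min (adjusted p 5.65e-06). The methyltransferase gene CCOAOMT1 (AT4G34050) fell by 0.89 and 1.27 on the log2 scale (adjusted p 0.000433 and 2.48e-05). The ferulate 5-hydroxylase gene FAH1 (AT4G36220) fell by 1.43 and 0.99 (adjusted p 5.66e-05 and 0.000817). In these leaves MYB15 was thus higher while these genes were lower, in the same libraries.

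CAMTA3, one of the calcium-linked activators, rose at both times. Its levels were 18.7, 12.6 and 14.4 CPM before wounding, 32.3, 39.4 and 32.6 CPM at 30 min, and 22.1, 27.3 and 27.5 CPM at 60 min. The 3 groups did not overlap, and the 60 min libraries lay between the other two groups. The mean went from 15.2 ± 3.16 to 34.8 ± 4.02 CPM by 30 min, a 2.28-fold rise (log2 change 1.19, SE 0.18, edgeR adjusted p 0.000244), and stood at 25.6 ± 3.04 CPM at 60 min, 1.68-fold above the level before wounding (log2 change 0.75, SE 0.18, adjusted p 0.00539). Of all tested genes, 7.14% had a larger log2 change at 30 min. Both calls held in all alternatives tried.

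The step down of CAMTA3 from 30 to 60 min was not called: the log2 change was -0.44 (SE 0.17, unadjusted p 0.024, edgeR adjusted p 0.286). CAMTA3 overlaps the ubiquitin protease gene UBP4 (AT2G22310) by 69 bases on the opposite strand, and 99.4% of its exonic stretches of 50 bases occur in no other gene. The profiles nearest to CAMTA3 were those of ALIS1 (AT3G12740, 0.124), SSP4 (AT5G46410, 0.144) and AT3G54100 (0.154), against a deviation of 0.527 of CAMTA3 from its own mean. ALIS1 encodes a subunit of a lipid flippase and went from 21.5 ± 2.59 to 49.2 ± 2.9 and 35.3 ± 4.23 CPM.

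CAMTA2 rose less. Its levels were 18.0, 17.2 and 18.8 CPM before wounding, 24.0, 26.9 and 28.9 CPM at 30 min, and 23.8, 22.5 and 27.4 CPM at 60 min. All 6 libraries after wounding were above the 3 before it, and the libraries at 30 and 60 min overlapped. The log2 change was 0.57 at 30 min (SE 0.15, 1.48-fold, edgeR adjusted p 0.0106) and 0.45 at 60 min (SE 0.15, 1.36-fold, adjusted p 0.0308). The call at 30 min was lost without before-wounding replicate 2 (adjusted p 0.0598). That at 60 min was lost without before-wounding replicate 1 (0.0685), 2 (0.129) or 3 (0.0773) and without 60 min replicate 1 (0.0598) or 3 (0.139), with log2 changes of 0.34 to 0.47 in those fits. The nearest profile was that of AGB1 (AT4G34460, the beta subunit of the heterotrimeric G protein), at 0.0599 against a deviation of 0.261 of CAMTA2 itself, followed by AT5G21105 (0.0682) and LRB1 (AT2G46260, 0.0714).

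CAMTA1 had the widest spread of the 8 genes at 60 min. Its levels were 35.1, 24.5 and 24.2 CPM before wounding, 35.2, 28.7 and 41.3 CPM at 30 min, and 32.4, 57.8 and 29.0 CPM at 60 min. The groups overlapped, and in each group the highest library was the one with the lowest mesophyll sum (before-wounding replicate 1, 30 min replicate 3 and 60 min replicate 2), whose part in these values was not tested. The log2 changes of 0.33 at 30 min (95% interval -0.21 to 0.86, edgeR adjusted p 0.363) and 0.51 at 60 min (-0.03 to 1.04, adjusted p 0.135) were not called, and intervals of this width include the change measured for CAMTA2. Without 60 min replicate 2 the change from 30 to 60 min turned from 0.18 to -0.19, and neither was called.

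Whether the 3 CAMTA genes moved unequally was asked of the ratio of their counts within each library, in which library size cancels. CAMTA2 had 0.96, 1.37 and 1.31 counts for each count of CAMTA3 before wounding, then 0.744, 0.682 and 0.887 after 30 min and 1.08, 0.824 and 0.997 after 60 min. This ratio was lowest on average at 30 min. All 3 libraries at 30 min lay below the 3 before wounding, and those at 60 min overlapped those before wounding. The mean log2 ratio was lower by 0.48 after wounding (0.26 ± 0.277 before, SD, n = 3, and -0.22 ± 0.25 after, n = 6), with a two-sided exact permutation p of 0.0595, or 0.214 adjusted over the 4 pairs of genes compared.

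CAMTA1 against CAMTA3 gave a difference of -0.59 (exact permutation p 0.107, adjusted 0.214), and CAMTA1 against CAMTA2 gave -0.11 (p 0.774, adjusted 0.774). CAMTA1 and CAMTA3 were at 1.83 to 1 on average before wounding (1.68 to 1.95 in single libraries). At 30 min they were at 1 to 1 (0.728 to 1.26 in single libraries), which did not overlap the values before wounding. The 60 min libraries, at 1.05 to 2.12, overlapped both. With 84 splits of 9 libraries the smallest p was 0.0119, so the differences between the CAMTA genes did not pass although the design allowed it. A larger rise of CAMTA3 than of CAMTA1 and CAMTA2 was therefore measured but not called. The test took the 30 and 60 min libraries together, and 30 min alone was not tested.

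**Figure D2:**
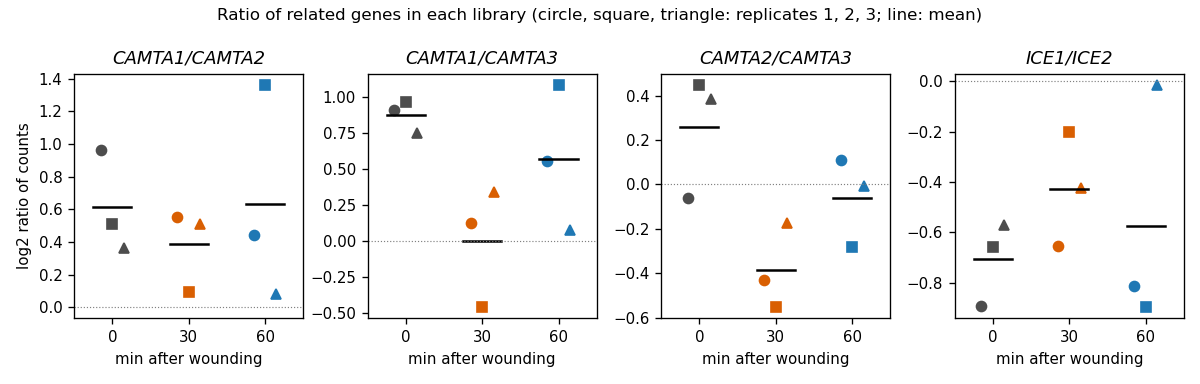
log2 ratio of counts of related genes (vertical axis) in each library against minutes after wounding (horizontal axis), with the mean of 3 libraries as a line. CAMTA2/CAMTA3 is lowest on average at 30 min, from 0.682 to 0.887 on the linear scale, and ICE1/ICE2 overlaps at all 3 times.

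The other 3 CAMTA-type genes of the genome were followed beside them. AT1G67310, annotated as a calmodulin-binding transcription activator protein, went from 9.23 ± 2.22 to 19.9 ± 1.88 and 24.4 ± 4.01 CPM. On the log2 scale it rose by 1.1 at 30 min (SE 0.20, edgeR adjusted p 0.000968) and by 1.4 at 60 min (adjusted p 0.000138). AT4G16150 stood at 27.6 ± 2.25, 28.7 ± 5.96 and 30.1 ± 1.87 CPM and AT3G16940 at 10.7 ± 1.2, 14.2 ± 2.84 and 13.1 ± 4.32 CPM, neither of them called (adjusted p 0.217 to 0.812). Among all 6 family members, CAMTA2, CAMTA3 and AT1G67310 were thus called higher at both times and 0 were called lower. Of all tested genes 14.5% (30 min) and 17.1% (60 min) were called higher. The CAMTA2 call at 60 min, as given above, was lost in fits without single libraries.

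Both ICE genes, the activators of the helix-loop-helix type, were lower after wounding. ICE2 had 50.7, 38.6 and 41.3 CPM before wounding, 27.3, 26.3 and 26.0 CPM at 30 min, and 33.3, 32.3 and 22.5 CPM at 60 min. Every library after wounding was below every library before it, and the 30 min libraries lay closest together. The mean fell from 43.5 ± 6.37 to 26.5 ± 0.663 CPM by 30 min, 1.64-fold lower (log2 change -0.72, SE 0.17, edgeR adjusted p 0.00673), and was 29.3 ± 5.98 CPM at 60 min, 1.48-fold lower (log2 change -0.57, SE 0.17, adjusted p 0.0201).

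The call of ICE2 at 60 min was lost without before-wounding replicate 1 (adjusted p 0.0858), without 60 min replicate 3 (0.0677) and with library size alone (log2 change -0.35, adjusted p 0.215). With that scaling all tested genes had a median of 0.121 (30 min) and 0.281 (60 min) on the log2 scale. The profiles nearest to ICE2 were those of AT4G14740 (0.11), the flowering repressor gene SVP (AT2G22540, 0.116) and the receptor kinase gene NIK3 (AT1G60800, 0.117). Since these are whole leaves, fewer cells expressing a gene and less of its RNA in each cell cannot be told apart.

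ICE1 had 27.4, 24.5 and 27.8 CPM before wounding, 17.3, 22.9 and 19.4 CPM at 30 min, and 18.9, 17.4 and 22.2 CPM at 60 min. All libraries after wounding were below those before it, by a smaller margin than for ICE2. The log2 change was -0.41 at 30 min (95% interval -0.76 to -0.07, edgeR adjusted p 0.0697), which was not called, and -0.45 at 60 min (SE 0.16, 1.36-fold lower, adjusted p 0.0463), which was.

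The ICE1 call at 60 min was near the threshold. It was lost without before-wounding replicate 1 (adjusted p 0.104), 2 (0.0704) or 3 (0.125), without 30 min replicate 1 (0.0533), without 60 min replicate 1 (0.119) or 2 (0.14), with no filter on low counts (0.058) and with library size alone (log2 change -0.24, adjusted p 0.247). Without 30 min replicate 2 the fall at 30 min was called (log2 change -0.53, adjusted p 0.0414). The nearest profiles were those of CYP94D2 (AT3G56630, 0.0798), AT1G80500 (0.08) and NFU3 (AT4G25910, 0.0809).

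The ratio of ICE1 to ICE2 counts was 0.539, 0.635 and 0.673 before wounding, 0.635, 0.871 and 0.746 at 30 min, and 0.569, 0.538 and 0.99 at 60 min. It overlapped at all 3 times, and the mean log2 ratio was higher by 0.21 after wounding (exact permutation p 0.417, adjusted 0.556). An unequal fall of the ICE genes was therefore not detected.

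ICE1 and ICE2 are also known as the partners of SPCH, MUTE and FAMA in the stomatal lineage, and 6 genes of that lineage were followed. FAMA (AT3G24140), which acts in the last step of guard cell formation, rose from 7.19 ± 0.991 to 18.7 ± 0.786 and 19.1 ± 1.45 CPM. On the log2 scale this was 1.37 at 30 min (SE 0.16, edgeR adjusted p 3.77e-05) and 1.41 at 60 min (adjusted p 2.73e-05). The other 5 were not called, so that 1 of 6 was called at each time, against 28% (30 min) and 32.4% (60 min) of all tested genes. SPCH (AT5G53210), which starts the lineage, stood at 0.559 ± 0.267, 0.651 ± 0.269 and 1.33 ± 0.495 CPM (adjusted p 0.858 and 0.108), and EPF2 (AT1G34245), a peptide gene of early lineage cells, at 0.455 ± 0.213, 0.984 ± 0.29 and 0.962 ± 0.161 CPM (adjusted p 0.137 and 0.136). FAMA and SLAC1 are also on the guard cell marker list, whose sum rose after wounding while CPM of both ICE genes were lower. As given above, ICE1 was not called at 30 min, and the calls of both ICE genes at 60 min were lost in some alternatives. Not every marker on that list rose, and KAT1 and EPF1 are named here after their values were seen. KAT1 read 16.6, 15.5 and 15 CPM after 30 min, below its 19, 20.3 and 19.5 CPM in unwounded leaves. Its 60 min values (20.6, 22.4 and 15.4 CPM) lay on both sides of the unwounded ones. EPF1 spanned 1.23 to 2.16 CPM unwounded, 0.698 to 2.51 CPM after 30 min and 0.862 to 2.48 CPM after 60 min. The part of cell makeup was not tested.

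**Figure D3:**
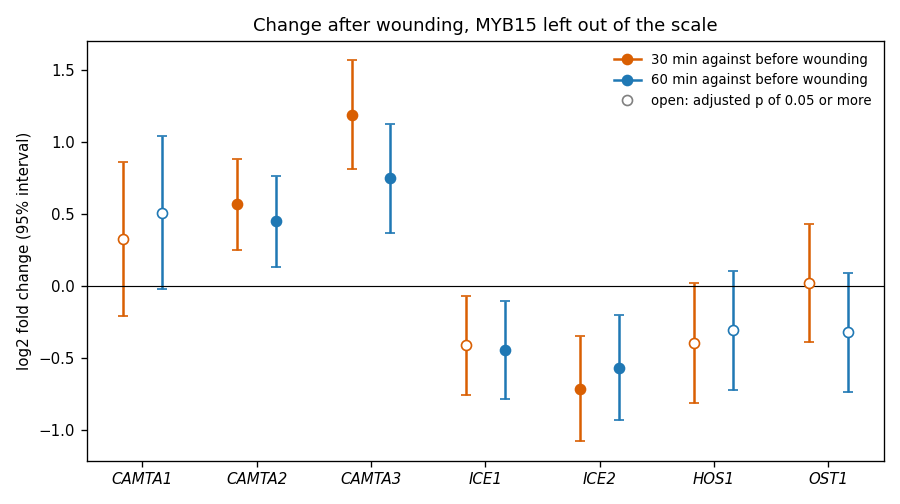
log2 fold change with its 95% interval (vertical axis) of 7 of the 8 genes (horizontal axis) at 30 and 60 min against before wounding, with open circles for adjusted p of 0.05 or more. CAMTA3 at 30 min (1.19) and ICE2 at 30 min (-0.72) are the outermost values, and MYB15 is left out because of its scale.

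The 2 genes whose products act on ICE1 protein gave no call at either time. HOS1 had 17.3, 14.8 and 16.5 CPM before wounding, 13.8, 11.4 and 11.8 CPM at 30 min, and 16.2, 13.3 and 9.7 CPM at 60 min. The 30 min libraries were all below those before wounding, and the 60 min libraries overlapped both. The log2 changes were -0.4 at 30 min (95% interval -0.81 to 0.02, edgeR adjusted p 0.15) and -0.31 at 60 min (-0.72 to 0.11, adjusted p 0.241). HOS1 protein also binds the nuclear pore, and of 2 genes for pore proteins, NUP96 (AT1G80680) and NUP160 (AT1G33410), 0 were called at either time. NUP96 had values of -0.21 and 0.03 on the log2 scale (adjusted p 0.348 and 0.912) and NUP160 of -0.52 and -0.5 (adjusted p 0.155 at both).

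OST1 had 11.8, 14.6 and 9.33 CPM before wounding, 12.4, 10.6 and 13.3 CPM at 30 min, and 9.61, 9.66 and 9.3 CPM at 60 min. The libraries at 30 min spanned the middle of those before wounding, and the 60 min libraries lay close together, below all 3 at 30 min, and at or next to the lowest library before wounding, with 1 of them just under it. The log2 change was 0.02 at 30 min (95% interval -0.39 to 0.43, edgeR adjusted p 0.957) and -0.32 at 60 min (-0.74 to 0.09, adjusted p 0.215). Without before-wounding replicate 3 the 30 min change was -0.14 and without 30 min replicate 3 it was -0.04.

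Of 7 genes for partners of OST1 in abscisic acid signalling, 2 were higher and 0 lower at each time, a share near the 28% and 32.4% called over all tested genes. The related kinase gene SNRK2.2 (AT3G50500) rose from 30.5 ± 2.14 to 51.4 ± 2.52 and 56.5 ± 5.46 CPM (log2 changes 0.75 and 0.89, SE 0.13 each, edgeR adjusted p 0.000819 and 0.00021). SLAC1 (AT1G12480), the guard cell anion channel that OST1 opens, rose from 1.55 ± 0.479 to 5.87 ± 0.12 and 5.35 ± 1.72 CPM (log2 changes 1.92 and 1.79, adjusted p 0.00055 and 0.000802), but only 61.9% of its exonic stretches of 50 bases occur in no other annotated gene, and it overlaps AT1G04953 on the opposite strand. The phosphatase gene ABI2 (AT5G57050) stood at 5.59 ± 2.23, 3.42 ± 0.64 and 5.06 ± 1.94 CPM and was not called (adjusted p 0.148 and 0.78).

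No member was called between 30 and 60 min in edgeR or in DESeq2, against 2.02% of all tested genes (0.721% higher and 1.3% lower), and 1 of 8, CAMTA3, had an unadjusted p under 0.05. CPM of the 30 and 60 min libraries did not overlap for 2 of the 8, CAMTA3 and OST1, both lower at 60 min, against 16.2% of tested genes. The F test over the 3 times called MYB15 (adjusted p 3.15e-06), CAMTA3 (0.000589), ICE2 (0.00997) and CAMTA2 (0.0202), 4 of 8, against 32.1% of tested genes, and not ICE1 (0.0665).

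Levels of different genes were compared per kilobase of exon. Before wounding the order was ICE2 (19.2 ± 2.8 CPM per kb), ICE1 (10.5 ± 0.714), CAMTA1 (7.58 ± 1.68), OST1 (6.06 ± 1.34), HOS1 (4.96 ± 0.391), CAMTA2 (4.7 ± 0.209), CAMTA3 (3.71 ± 0.764) and MYB15 (0.0204 ± 0.0177). ICE2 was above ICE1 in every library and MYB15 was below all others. From CAMTA1 down to CAMTA3 each gene overlapped the next in this order.

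At 30 min ICE2 still led (11.7 ± 0.3 CPM per kb), CAMTA3 had moved from the seventh to the third place (8.47 ± 0.979), and it overlapped CAMTA1 (9.51 ± 1.71) above it and ICE1 (7.88 ± 1.12) below it. At 60 min the order was ICE2 (13.0 ± 2.63), CAMTA1 (10.8 ± 4.27), ICE1 (7.74 ± 0.974), CAMTA2 (6.41 ± 0.663), CAMTA3 (6.25 ± 0.746), OST1 (4.84 ± 0.0992), HOS1 (4.0 ± 0.996) and MYB15 (2.65 ± 0.747), of which neighbours in that order overlapped in all but 1 case: CAMTA3, at 5.39 to 6.7, did not overlap OST1, at 4.73 to 4.91. MYB15 stayed the lowest of the 8 at each time in its mean level.

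**Figure D4:**
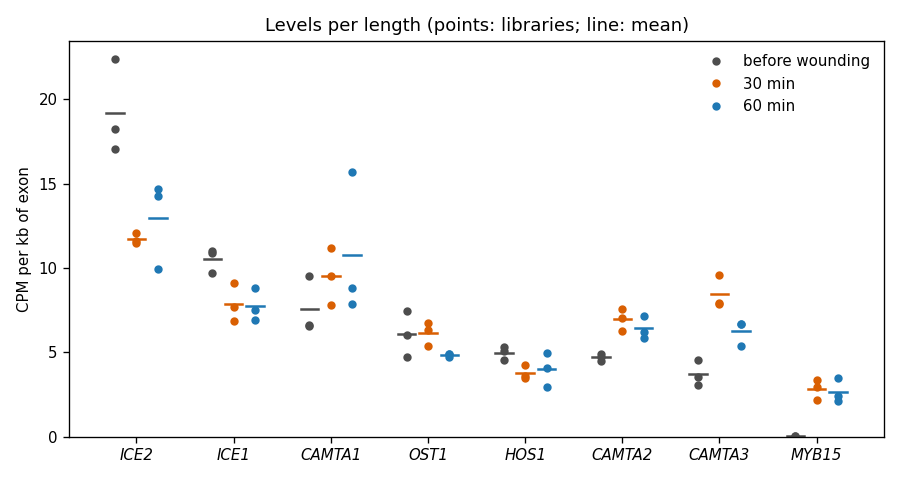
Level in CPM per kilobase of exon (vertical axis, from 0) of each gene (horizontal axis, in the order of the means before wounding), 1 point a library and a line for the mean. The gap between ICE2 and the rest, 19.2 against 10.5 or less before wounding, narrows at 30 min, when ICE2 is at 11.7 and CAMTA1 at 9.51.

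The CBF genes themselves stayed low. Counts of CBF2 (AT4G25470) were 96, 12 and 31 before wounding, 10, 13 and 18 at 30 min, and 55, 9 and 15 at 60 min, and CBF2 was not called (edgeR adjusted p 0.13 and 0.35). CBF1, CBF3 and CBF4 had at most 11, 2 and 4 counts in any library and were below the filter. The 3 groups of CBF2 overlapped, and replicate 1 was its highest library both before wounding and at 60 min.

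The counts over the lists that follow stand beside the same background of 28% and 32.4% of all tested genes called. Of 9 genes induced beside the CBF genes in the first wave of the cold response, 5 were higher and 1 lower at 30 min (median log2 change 0.66) and 3 were higher and 2 lower at 60 min (median 0.52). The lower genes at 60 min include HSFC1 (AT3G24520), named after its values were seen (log2 change -1.25, edgeR adjusted p 0.00459). Only 3.5% of its stretches of 50 bases occur in no other gene, and it overlaps AT3G24518 on the opposite strand by 1808 bases. The strand setting is not given, so its counts are uncertain. DEAR1 (AT3G50260), a relative of the CBF factors known to lower CBF expression, rose from 0.601 ± 0.208 to 8.0 ± 0.64 and 3.28 ± 1.49 CPM (log2 changes 3.72 and 2.44, SE 0.39 and 0.38, edgeR adjusted p 1.21e-05 and 0.000327). The zinc finger gene ZAT6 (AT5G04340) rose from 2.99 ± 2.18 to 17.6 ± 2.96 and 23.4 ± 8.58 CPM (adjusted p 0.000908 and 0.000276). MYB73 (AT4G37260), which shares 29 bases with a gene on the opposite strand, fell from 70.1 ± 14.4 to 43.4 ± 5.93 and 29.3 ± 6.37 CPM (adjusted p 0.016 and 0.000277).

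Of 6 genes of salicylic acid defence that CAMTA factors are known to keep low, 0 were called higher at either time, 1 was lower at 30 min and 3 were lower at 60 min (medians -0.07 and -0.54). EDS1 (AT3G48090), a hub of immune signalling, stood at 13.6 ± 1.8 and 15.1 ± 0.905 CPM before wounding and at 30 min and fell to 8.2 ± 0.611 CPM at 60 min (log2 change against before -0.72, edgeR adjusted p 0.00496, and against 30 min -0.88, adjusted p 0.0148). Its partner PAD4 (AT3G52430) went from 10.1 ± 1.8 to 5.57 ± 2.07 and 5.21 ± 0.873 CPM (adjusted p 0.031 and 0.0159), and CBP60G (AT5G26920), which activates salicylic acid synthesis, from 5.49 ± 2.34 to 4.36 ± 0.932 and 2.82 ± 0.817 CPM (adjusted p 0.494 and 0.0415). NDR1 (AT3G20600), a gene of immune signalling named here after its values were seen, had 3.55 to 5.92 CPM before wounding and 6.2 to 8.98 CPM at 30 min, which did not overlap, and was not called (log2 change 0.72, adjusted p 0.204). SARD1 (AT1G73805), a relative of CBP60G also named after its values were seen, had a log2 change of 1.08 at 30 min and was not called (adjusted p 0.384). With library size alone the counts of lower genes were 0 and 1.

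Among 11 tested genes for other direct regulators of CBF promoters, of 12 listed, 3 were higher and 3 lower at each time. The higher genes were not all the same at both times. BZR1 (AT1G75080) was called at 30 min only (edgeR adjusted p 0.0426 and 0.504), with 78.9% of its stretches of 50 bases in no other gene. PRR7 (AT5G02810) was called at 60 min only (adjusted p 0.0633 and 0.0328). BZR1 and PRR7 are named after their values were seen. The clock gene CCA1 (AT2G46830), an activator of CBF genes, fell by 2.06 and 2.8 on the log2 scale (edgeR adjusted p 2.04e-06 and 2.14e-07), and its partner LHY (AT1G01060) fell from 44.7 ± 2.28 to 13.0 ± 4.43 and 9.11 ± 3.13 CPM (adjusted p 0.000254 and 3.31e-05). PRR5 (AT5G24470), a clock repressor of CBF genes, rose from 4.81 ± 1.12 to 13.1 ± 6.39 and 19.1 ± 4.25 CPM (adjusted p 0.00324 and 0.00031). Its relative PRR9 (AT2G46790) on the same list, named after its values were seen, went the other way. PRR9 was lower at both times (log2 changes -0.91 and -1.04, adjusted p 0.0186 and 0.00773), with 68.8% of its stretches of 50 bases in no other gene.

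Of 10 tested genes whose products modify ICE1, MYB15 or CBF proteins, of 11 listed, 3 were higher and 1 lower at each time. JAZ1 (AT1G19180), whose protein binds ICE1 and holds it inactive, rose from 3.12 ± 1.75 to 148 ± 17.5 and 52.8 ± 22.2 CPM (log2 changes 5.55 and 4.06, edgeR adjusted p 3.12e-07 and 2.83e-06). MPK3 (AT3G45640), a kinase that marks ICE1 for breakdown, rose to 124 ± 15.7 CPM at 30 min from 61.8 ± 2.49 (adjusted p 0.00041) and was at 54.1 ± 11.5 CPM at 60 min (adjusted p 0.388 against before and 0.00155 against 30 min). MPK3 overlaps a gene on the opposite strand. PUB26 (AT1G49780), a ubiquitin ligase gene whose product removes MYB15 protein in the cold, fell from 21.7 ± 2.1 to 11.8 ± 0.957 and 7.64 ± 0.66 CPM (log2 changes -0.88 and -1.51, adjusted p 0.00108 and 1.64e-05). PUB25 (AT3G19380) on the same list, named after its values were seen, was not called (log2 changes -0.42 and -0.45, adjusted p 0.158 and 0.11). The rise of MYB15 was in RNA, and its protein was not measured.

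Of 5 genes for earlier steps of cold and calcium signalling, 1 was higher and 1 lower at 30 min, and 0 were higher and 1 lower at 60 min. CRLK1 (AT5G54590), a calcium- and calmodulin-regulated receptor kinase of cold signalling, fell from 8.01 ± 0.332 to 1.84 ± 0.16 and 1.8 ± 0.5 CPM (log2 changes -2.12 and -2.15, SE 0.27 each, edgeR adjusted p 6.88e-05 and 5e-05). MEKK1 (AT4G08500), the kinase next in that path, rose from 13.4 ± 1.57 to 29.5 ± 4.3 CPM at 30 min (adjusted p 0.000276) and stood at 15.2 ± 2.24 CPM at 60 min (adjusted p 0.428 against before and 0.0102 against 30 min). MPK4 (AT4G01370) stood at 29.5 ± 0.885, 23.8 ± 3.08 and 21.9 ± 4.0 CPM and was not called (adjusted p 0.187 and 0.0579), with 78.9% of its stretches of 50 bases in no other gene.

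**Figure D5:**
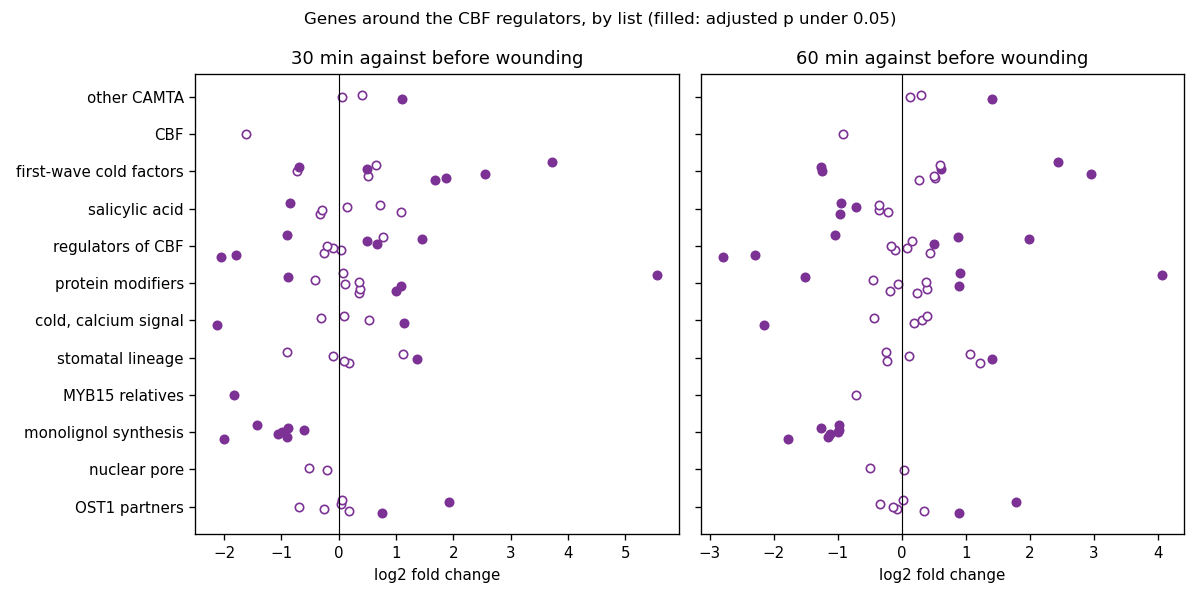
log2 fold change (horizontal axis) of the tested genes of each list (rows, 1 point a gene) at 30 and at 60 min against before wounding, with filled points for adjusted p under 0.05. All 7 genes of monolignol synthesis lie below 0 at both times, and JAZ1, at 5.55 and 4.06, is the rightmost point.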

How the data were processed

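RNA of 9 leaf samples was sequenced from TruSeq RNA libraries, per the labels. The authors deposited raw read counts for each gene and library, not normalized; per the submitters' processing notes, FastQC 0.11.8, Trimmomatic 0.36, HISAT2 2.2.0, featureCounts and the build TAIR10 were used, and the strand setting is not given in the sources used here. Columns were matched to samples by library name, and 0 columns belonged to no sample. Counts were filtered with filterByExpr (17622 genes, 99.96% of counts) and the quasi-likelihood test (glmQLFit, then glmQLFTest) was run in edgeR 4.0.16 under R 4.3.3 with TMM factors, all 9 libraries being fitted together by group alone. P-values are two-sided and adjusted by Benjamini-Hochberg over all tested genes. CPM are relative to the TMM-scaled total. The SE was taken as the size of the log2 change over the root of its F statistic, and intervals of 95% rest on it. A count of 3 or less in a library was the floor (0.114 to 0.209 CPM), which covers counting error only. Ratios of related genes were tested by exact permutation of 3 against 6 libraries.

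Exon lengths, overlaps, uniqueness and upstream bases came from RefSeq TAIR10.1, whose exons may differ from those counted. The members and lists were chosen with earlier results of these data known. Named were all 8 members, the 3 tested genes of each list with the smallest F test p (all genes in lists of 4 or fewer), and the 3 genes with the nearest profile to each member that was called. Further genes named after their values were seen are marked so, apart from the single cell type markers RBCS1A, EXPA7, RHD6 and IRT1, to which this also applies. Replicates of a group differed by more than counting noise (chi-square 6.91 to 41.1 per degree of freedom). Alternatives were RLE scaling, library size alone, other filters, DESeq2 1.42.0, only the groups compared, a replicate block, a threshold of 0.01 and leaving out each library. The fit was also run on simulated counts, as a check of the code only. Their spread was smaller than that of these data, and no gene as low as MYB15 before wounding was changed in them.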

Additional observations from a re-analysis of the deposited data

How the results depend on the processing

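The number of members called at 30 min (4) was 3 to 5 in all alternatives. At 60 min (5) it was 3 with library size alone (3 higher and 0 lower) or with the replicate block, 2 at a threshold of 0.01, and 2 to 5 without single libraries. The F test over the 3 times called 2 to 5 members without single libraries, against 4. Between 30 and 60 min 0 members were called in every alternative. With library size alone 61.3% of all genes called at 30 min and 70.9% at 60 min were higher, against 51.9% and 52.9%. Same-numbered replicates share a number only: their deviations correlated at -0.365 to 0.156, and with the replicate block the calls of CAMTA2 (adjusted p 0.0533) and ICE1 (0.0833) at 60 min were lost. The difference in log2 ratio of CAMTA1 to CAMTA2 (-0.106) was -0.277 to 0.071 without single libraries, positive without before-wounding replicate 1. With a library left out or a replicate block, too few splits remain for 1 ratio on its own to pass 0.05 after adjustment, so those p-values say nothing about stability. Uncalled log2 changes that turned sign without single libraries ranged, from 30 to 60 min, over -0.192 to 0.342 for CAMTA1, -0.151 to 0.075 for ICE1, -0.354 to 0.06 for MYB15 and -0.096 to 0.244 for HOS1, and at 30 min over -0.139 to 0.182 for OST1. That of ICE1 was also 0.079 with library size alone.

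Counts over lists that moved by more than 1.5 times were these. At a threshold of 0.01, 2 first-wave cold genes and 3 direct regulators of CBF genes were called at 30 min, and 0 and 1 salicylic acid genes at 30 and 60 min. Library size alone gave the same 0 and 1. Between 30 and 60 min, both settings gave 0 salicylic acid genes, 0 direct regulators, 0 cold and calcium signal genes and 1 modifier gene. The causes of these shifts were not tested. Depth limits MYB15 before wounding, which was under the floor, and CBF1, CBF3 and CBF4, which were too low to test.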
